A study of Mus musculus with 30 samples.

Results

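The loci described here are those of 44 genes of Wnt signalling, namely 19 Wnt ligands, 12 receptors and co-receptors (Fzd1 to Fzd10, Lrp5 and Lrp6), 3 intracellular components (Axin1, Axin2 and Ctnnb1), 4 TCF/LEF transcription factors and 6 secreted antagonists (Dkk1, Dkk2, Dkk3, Sfrp1, Sfrp2 and Sfrp4). Open chromatin was read by ATAC-seq, in which a transposase cuts and tags accessible DNA, and the reads were counted in fixed genomic windows, the union of the peaks called by the authors. A window belonged to one of these genes when the start of that gene was the nearest protein-coding start within 50 kb. By this rule 704 of 305931 windows of the 24 h table and 760 of 369846 windows of the 4 h table were selected, which says where a window lies and not which gene it regulates.

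Marrow-derived mesenchymal stem cells (MSCs) of C57BL/6J mice were left without treatment or were given CK666, an inhibitor of the Arp2/3 complex that nucleates branched actin, or cytochalasin D (CytoD), which caps actin filaments and drives actin into the nucleus of these cells. The 24 h libraries were 3 untreated, 3 CK666 and 3 CytoD libraries of MSCs. The 4 h libraries were 3 untreated and 3 CK666 libraries of MSCs, and the same of NIH 3T3, an established mouse embryonic fibroblast line, for which the labels also give C57BL/6J and male. The labels name no engineered genetic change for these 7 groups, which does not cover changes an established line may carry. Libraries of cells given siRNA were not used here.

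Wnt proteins are lipid-modified secreted ligands that bind Frizzled receptors together with the co-receptors Lrp5 or Lrp6. In the canonical branch the receptor complex recruits Axin away from the complex that marks β-catenin (Ctnnb1) for destruction, and β-catenin then joins TCF/LEF factors on DNA. Sfrp proteins bind the ligands, and Dkk1 and Dkk2 block the co-receptors, so both families restrain the pathway, which in MSCs is best known for favouring bone formation over fat.

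Library totals ran from 14071301 to 22352180 counts at 24 h, from 29239381 to 34979833 in the 4 h MSC libraries and from 14496058 to 27866363 in NIH 3T3, where a CK666 library was the shallowest. The Wnt windows held between 0.197% and 0.221% of the counts of a library. Promoter windows of 6 of 6 general mesenchymal markers were present in the 24 h table, at 4.50 to 33.4 CPM per kb (counts scaled by library total and window length) in untreated MSCs. Present were also 7 of 12 marrow stromal markers at 2.68 to 32.7, 2 of 8 blood cell at 2.41 and 4.26, 2 of 4 endothelial at 0.953 and 3.86 and 1 of 4 epithelial at 1.34. The median of all promoter windows was 7.97, and 4 mesenchymal and 3 marrow stromal markers lay above it. Lepr, Thy1, Eng, Nt5e and Ly6a were the marrow stromal markers without a window at 24 h. At 4 h 9 of 12 had one, with a median of 4.95 in untreated MSCs and 4.98 in NIH 3T3. Cxcl12, Pdgfra, Pdgfrb and Ebf3 were higher in MSCs, and Lepr, Thy1, Prrx1, Vcam1 and Foxc1 were lower. The 2 blood cell markers present lay at 5.45 and 6.27 in those MSCs. These markers therefore did not set the cell types apart. Labels do not say whether replicates came from separate cultures, so p-values measure only the spread between these libraries. The values below are read counts scaled to the mean library size, called normalized counts. A window was called increased or decreased when edgeR's quasi-likelihood test gave an adjusted p under 0.01 over all windows tested and the log2 fold change passed 1 in size. In such bulk libraries, fewer cells with an open window and less access per cell cannot be told apart.

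The DNA of 7 windows is shown because large differences described below lie there, at a ligand, a co-receptor, 3 Frizzled windows and a pair of antagonists. Each line holds the central 300 bases of the window on the plus strand of GRCm38, the assembly also named mm10. Capitals mark the core of a TCF/LEF site, ATCAAAG or TTCAAAG on either strand, AP-1 (TGANTCA), TEAD (GGAATGT) or a CArG box. The stretches are Wnt2b chr3:104925534-104925833 (increased with CK666 at 24 h), Fzd7 chr1:59469458-59469757 (increased with CytoD), Fzd4 chr7:89415843-89416142 (increased with CK666 in both cell types), Dkk3 chr7:112185355-112185654 and the Sfrp4 promoter chr13:19623926-19624225 (both more open in MSCs), and Lrp5 chr19:3669189-3669488 and a further Fzd7 window chr1:59472278-59472577 (both more open in NIH 3T3).
Wnt2b: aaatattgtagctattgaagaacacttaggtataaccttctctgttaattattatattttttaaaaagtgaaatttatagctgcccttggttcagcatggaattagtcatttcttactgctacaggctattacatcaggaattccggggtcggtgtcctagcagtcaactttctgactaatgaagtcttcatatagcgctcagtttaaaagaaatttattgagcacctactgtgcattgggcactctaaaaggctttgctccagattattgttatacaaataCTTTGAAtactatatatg
Fzd7 with CytoD: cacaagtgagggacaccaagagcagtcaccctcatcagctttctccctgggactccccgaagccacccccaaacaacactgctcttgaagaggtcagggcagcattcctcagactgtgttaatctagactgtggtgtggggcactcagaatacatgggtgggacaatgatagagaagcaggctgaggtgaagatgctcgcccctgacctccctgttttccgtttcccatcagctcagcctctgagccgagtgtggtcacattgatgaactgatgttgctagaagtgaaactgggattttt
Fzd4: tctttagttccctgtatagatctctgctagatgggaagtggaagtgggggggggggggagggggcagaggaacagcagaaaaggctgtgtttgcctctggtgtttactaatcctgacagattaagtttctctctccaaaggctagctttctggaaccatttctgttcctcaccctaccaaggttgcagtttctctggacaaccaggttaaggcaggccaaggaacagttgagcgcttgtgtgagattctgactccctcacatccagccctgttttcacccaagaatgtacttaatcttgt
Dkk3: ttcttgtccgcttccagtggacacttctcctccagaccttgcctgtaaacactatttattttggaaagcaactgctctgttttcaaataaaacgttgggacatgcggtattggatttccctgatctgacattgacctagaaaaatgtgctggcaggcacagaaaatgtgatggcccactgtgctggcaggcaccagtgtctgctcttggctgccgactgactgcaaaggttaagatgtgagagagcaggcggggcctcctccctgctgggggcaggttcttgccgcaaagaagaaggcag
Sfrp4 promoter: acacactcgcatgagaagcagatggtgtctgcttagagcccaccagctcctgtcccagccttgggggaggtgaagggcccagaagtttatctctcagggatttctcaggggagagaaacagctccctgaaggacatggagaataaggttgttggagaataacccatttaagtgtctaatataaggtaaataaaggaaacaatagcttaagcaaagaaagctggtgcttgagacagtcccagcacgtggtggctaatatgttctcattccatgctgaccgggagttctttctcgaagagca
Lrp5: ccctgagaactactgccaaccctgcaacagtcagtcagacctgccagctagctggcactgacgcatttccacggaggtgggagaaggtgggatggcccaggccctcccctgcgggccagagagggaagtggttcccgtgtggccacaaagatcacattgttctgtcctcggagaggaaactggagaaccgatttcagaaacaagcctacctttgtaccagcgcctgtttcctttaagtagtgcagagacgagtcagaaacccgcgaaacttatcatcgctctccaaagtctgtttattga
Fzd7 in NIH 3T3: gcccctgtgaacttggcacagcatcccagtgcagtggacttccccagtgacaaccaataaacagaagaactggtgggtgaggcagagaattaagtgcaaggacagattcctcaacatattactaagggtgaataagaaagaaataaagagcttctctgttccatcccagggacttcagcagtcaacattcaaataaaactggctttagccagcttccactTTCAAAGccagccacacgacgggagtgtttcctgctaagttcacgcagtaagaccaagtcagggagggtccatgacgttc
A TCF/LEF core stood in 2 of these, CTTTGAA in the Wnt2b window and TTCAAAG in the Fzd7 window of the 4 h table, and the other 5 held none of the 4 motifs. In the central 300 bases of the Wnt windows tested at 24 h, 10.4% held a TCF/LEF core against 10.2% of all tested windows, 16.5% against 21.1% held AP-1, 5.92% against 6.50% TEAD and 1.30% against 1.55% a CArG box, where a window could hold more than 1 motif. A match of letters does not show binding, and its absence says nothing about the factor.

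CK666 for 24 h opened single distal windows near Fzd4, Wnt11, Lrp6, Wnt2b and Tcf7l2 while it closed others near Wnt5b, Tcf7l1, Lrp6 and Tcf7l2, and no Wnt promoter was called. Of 692 Wnt windows tested, 10 increased and 5 decreased (1.45% and 0.72%), where 1.88% and 1.06% of all windows did, so the Wnt loci changed no more often than the background. The median log2 fold change was 0.06 over the Wnt windows and 0.02 over all windows. By role, 3 ligand windows of 249 increased and 1 decreased, 2 receptor windows of 177 increased and 1 decreased, 3 TCF/LEF windows of 117 increased and 3 decreased, and 1 window each of the intracellular and antagonist genes increased.

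**Figure D1:**
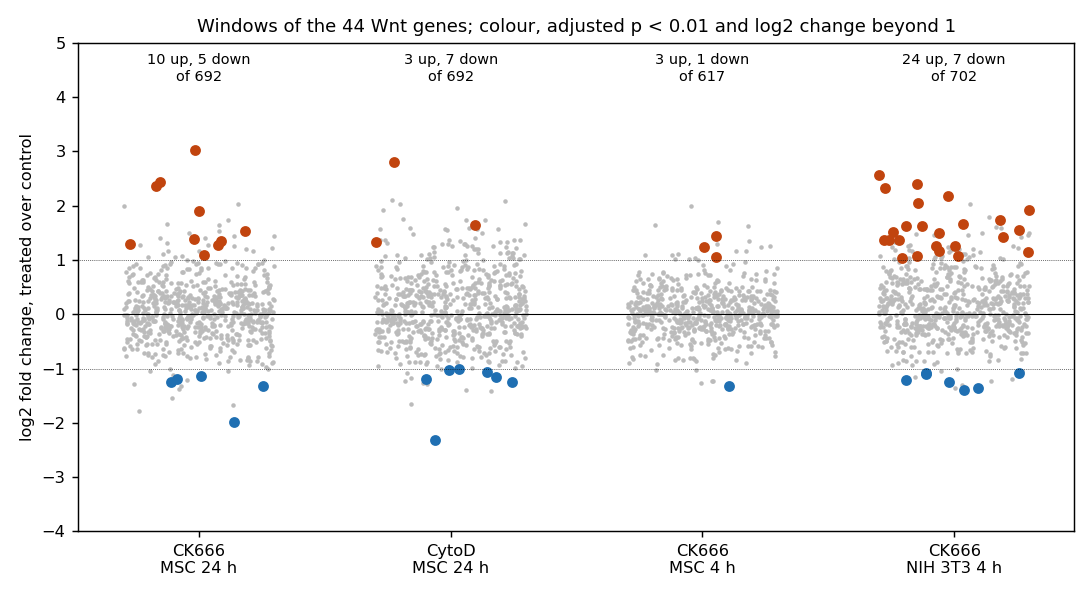
Log2 fold change of treated over untreated cells (vertical axis) for each tested window of the 44 Wnt genes, 1 point a window, in the 4 comparisons of drug with control. Red and blue points passed both limits upward or downward, dotted lines mark a log2 fold change of 1 either way, and the counts run from 3 up and 1 down of 617 windows in MSCs at 4 h to 24 up and 7 down of 702 in NIH 3T3.

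Fzd4 encodes a Frizzled receptor for Wnts and for Norrin. Its intergenic window 11.6 kb downstream of the start (chr7:89415970-89416536) held 42.9, 15.3 and 33.1 normalized counts in the untreated libraries, 105, 108 and 119 with CK666 and 22.9, 21.9 and 13.7 with CytoD. Every CK666 library lay above every other library. The log2 fold change over control was 1.91 ± 0.25 (SE, n = 3 a group) with CK666, adjusted p = 8.26e-09 in edgeR's quasi-likelihood test, and −0.62 ± 0.32 with CytoD, adjusted p = 0.235. A window in the Fzd4 intron, 1.7 kb downstream of the start (chr7:89406019-89406565), behaved the other way around. It held 40.3, 37.5 and 46.5 normalized counts untreated, 39.3, 43.5 and 41.3 with CK666 and 102, 124 and 88.7 with CytoD. CytoD alone stood apart there, by 1.33 ± 0.22 over control (adjusted p = 5.39e-06 by edgeR). Both windows also differed between the drugs, by 2.53 ± 0.28 for CK666 over CytoD at the distal window (adjusted p = 1.02e-11) and by −1.33 ± 0.22 at the intronic one (adjusted p = 3.12e-06). Another Fzd4 window in a UTR or noncoding exon 4.2 kb downstream (chr7:89408574-89409186) held 1.87, 6.96 and 6.88 with CK666 against 17.8, 21.9 and 32.0 with CytoD, a difference of −2.18 ± 0.55 (adjusted p = 0.00312). Its untreated libraries, at 14.3, 5.11 and 11.6, lay between those groups or overlapped the CK666 group.

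**Figure D2:**
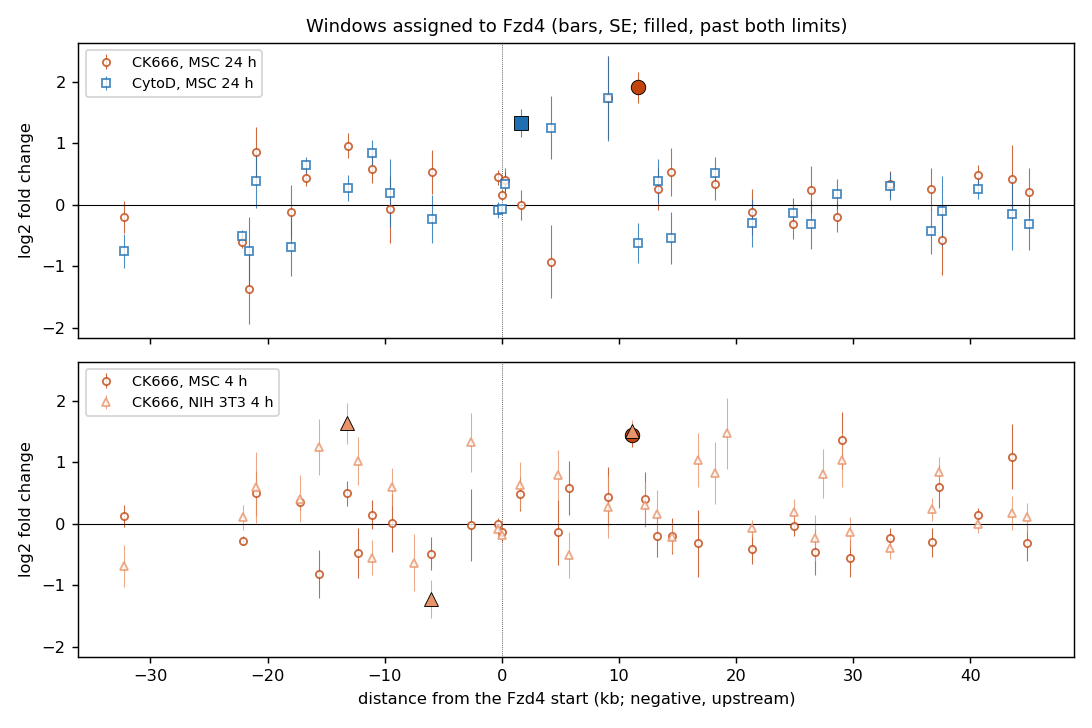
Log2 fold change (vertical axis, bars show SE) of the windows assigned to Fzd4 against distance from its start in kb (horizontal axis, negative is upstream), at 24 h in the upper panel and 4 h in the lower. Filled markers passed both limits: at 24 h the 11.6 kb window with CK666 and the 1.7 kb window with CytoD, and at 4 h the 11.1 kb window in both cell types plus 2 upstream windows in NIH 3T3.

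Among the ligands, Wnt11, known for signalling that does not need β-catenin, had an intergenic window 33.5 kb upstream (chr7:98800971-98801593) with 31.2, 46.9 and 34.9 normalized counts untreated, 105, 112 and 115 with CK666 and 40.7, 44.9 and 32.0 with CytoD. The CK666 libraries stood above all others, at a log2 fold change of 1.53 ± 0.22 over control (adjusted p = 9.71e-08), while CytoD differed from control by 0.02. Wnt2b had the largest gain, in an intron of the neighbouring gene St7l 36.0 kb downstream (chr3:104925422-104925945), from 5.19, 0.00 and 3.57 normalized counts to 24.3, 20.9 and 23.6. With 8 reads in the untreated group together, its log2 fold change of 3.03 ± 0.70 (adjusted p = 0.00107) is imprecise. CytoD libraries of this window held 7.63, 1.21 and 2.74. Wnt8a, a ligand of early embryonic development, showed 7.79, 1.70 and 3.57 untreated and 24.3, 18.3 and 24.6 with CK666 in an intergenic window 9.9 kb downstream, a gain of 2.43 ± 0.62 (adjusted p = 0.00369). The Wnt8a call was lost in 5 of 13 refits, those without any 1 of the 3 CK666 libraries or without control replicate 2 or 3, and the Wnt2b call in 2, without CK666 replicate 1 or control replicate 2. Wnt5b, another ligand best known outside the β-catenin branch, gave the largest loss, in its intron 9.4 kb downstream (chr6:119439392-119439953). That window fell from 68.8, 49.4 and 34.9 normalized counts to 14.0, 12.2 and 11.8, by 1.98 ± 0.34 on the log2 scale (adjusted p = 8.02e-06), and CytoD libraries held 21.6, 41.3 and 26.5.

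Lrp6, the co-receptor that forms the signalling complex with Frizzled, had intronic windows that moved in opposite directions. The one 42.4 kb downstream (chr6:134523750-134524502) rose from 18.2, 6.82 and 15.2 normalized counts to 67.4, 66.1 and 66.8, by 2.36 ± 0.33 (adjusted p = 5.7e-08), with CytoD libraries at 15.3, 19.4 and 9.14. The one 31.3 kb downstream (chr6:134534937-134535583) fell from 49.4, 42.6 and 31.3 to 24.3, 13.1 and 13.8, by 1.25 ± 0.34 (adjusted p = 0.00735). The groups did not overlap in either window, but the loss was not called in 5 of 13 refits, with DESeq2 or without CK666 replicate 2, CK666 replicate 3, control replicate 1 or control replicate 2, while the gain was called in all 13.

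Windows of the TCF/LEF factors, which carry β-catenin to DNA, likewise moved both ways. In Tcf7l2 an intronic window 15.7 kb downstream (chr19:55758048-55758680) rose from 29.9, 45.2 and 28.6 normalized counts to 78.7, 88.7 and 106, by 1.38 ± 0.24 (adjusted p = 6.95e-06). An intergenic window 27.4 kb upstream (chr19:55713853-55714383) fell from 181, 158 and 173 to 74.0, 80.9 and 68.8, by 1.19 ± 0.16 (adjusted p = 1.93e-08). An intronic one nearest to a later start of the gene (chr19:55872800-55873758) fell from 157, 181 and 189 to 75.8, 78.3 and 84.5, by 1.15 ± 0.17 (adjusted p = 1.1e-07). Tcf7l1, which mostly acts as a repressor of Wnt target genes, lost signal 16.6 kb upstream (chr6:72805868-72806422), from 122, 132 and 137 to 53.4, 62.6 and 40.3, by 1.32 ± 0.19 (adjusted p = 4.57e-08). Its CytoD libraries there stayed at 109, 104 and 103. A pair of windows in Lef1 introns, 1 in an intron of Dkk2 and 1 in an intron of Ctnnb1 made up the other 4 gains, with log2 fold changes from 1.10 to 1.36.

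CytoD for 24 h changed other single windows, with gains near Fzd7, Wnt7b and Fzd4 and losses near Fzd1, Tcf7l2, Ctnnb1, Dkk2, Fzd5, Sfrp2 and Wnt5a. Of the same 692 windows 3 increased and 7 decreased (0.43% and 1.01%), against 0.980% and 1.40% of all windows, and the median was 0.06 against 0.04. The control libraries are those of the CK666 comparison, so the comparisons are not independent. When libraries were scaled to total counts, 3 Wnt windows increased and 4 decreased, and the share of gains among all calls went from 41.2% to 56.4%.

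The Sfrp2 window was the most open of these losses, for a secreted protein that binds Wnt ligands, and lay 25.7 kb upstream (chr3:83739521-83740637). It held 540, 684 and 692 normalized counts untreated, 512, 572 and 636 with CK666 and 333, 281 and 326 with CytoD. CytoD libraries were below the rest, by 1.03 ± 0.10 on the log2 scale against control (edgeR adjusted p = 1.11e-13). Dkk2 showed 96.1, 119 and 121 untreated against 61.1, 61.9 and 32.9 with CytoD in an intron 36.7 kb downstream (chr3:132121982-132122502), a log2 fold change of −1.15 ± 0.20 (adjusted p = 1.4e-05). Ctnnb1, the gene of β-catenin, showed 48.1, 58.8 and 52.7 against 16.5, 26.7 and 25.6 at an intergenic window 41.3 kb upstream (chr9:120887125-120887872), −1.20 ± 0.29 (adjusted p = 0.00185). In both windows the CK666 libraries overlapped the untreated ones, at 106, 122 and 109 and at 54.3, 49.6 and 45.2. The Tcf7l2 window near the later start that fell with CK666 also fell with CytoD, to 89.1, 78.9 and 58.5, by 1.24 ± 0.17 (adjusted p = 4.71e-08).

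Among the receptors, Fzd5 lost signal in an intron of Ccnyl1 21.3 kb downstream (chr1:64715334-64716413), from 87.0, 70.7 and 105 to 44.5, 43.7 and 37.5, a log2 fold change of −1.07 ± 0.23 (adjusted p = 0.000344). Fzd1 went from 36.4, 11.9 and 26.8 to 1.27, 9.72 and 3.66 at 10028 bp downstream (chr5:4747492-4748007), −2.32 ± 0.60 (adjusted p = 0.00477). There the CK666 libraries, at 10.3, 6.09 and 4.91, were also low, but the difference from control had an adjusted p of 0.0249. Fzd7 was the largest gain, from 0.00, 3.41 and 2.68 to 16.5, 20.6 and 11.9 at 12.5 kb upstream (chr1:59469276-59469939). It rested on 7 untreated reads, with a log2 fold change of 2.80 ± 0.75 (adjusted p = 0.00729), and CK666 libraries held 6.55, 5.22 and 16.7. Wnt7b, a ligand of the canonical branch, held 10.4, 9.38 and 8.04 untreated and 29.3, 40.1 and 18.3 with CytoD at 33.4 kb upstream (chr15:85615862-85616657), 1.64 ± 0.45 (adjusted p = 0.00845). Of the 9 CytoD windows given with values, those of Fzd4 and Tcf7l2 passed both limits in every refit. The other 7 calls were lost in 9 of 13 refits for Wnt7b, 8 for Fzd7, 7 for Fzd1, 3 for Sfrp2, 2 each for Ctnnb1 and Fzd5 and 1 for Dkk2.

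CK666 and CytoD were also set against each other. Of the 692 windows 16 were more open with CK666 and 7 with CytoD (2.31% and 1.01%), against 2.14% and 1.14% of all windows. All 6 ligand windows called, at Wnt2b, Wnt3, Wnt5a (2 windows), Wnt11 and Wnt16, were higher with CK666. Scaled to total counts the numbers were 11 and 9, and the share of all calls higher with CK666 went from 65.3% to 53.8%. Besides the Fzd4 windows, the 4 largest differences toward CK666 held the Wnt2b window (2.57 ± 0.68, adjusted p = 0.00466), the Lrp6 window 42.4 kb downstream (2.22 ± 0.34, adjusted p = 3e-07) and a Lef1 intron 5.0 kb downstream. That Lef1 window (chr3:131117822-131118524) held 45.9, 27.8 and 52.1 normalized counts with CK666, 20.4, 12.1 and 7.31 with CytoD and 15.6, 14.5 and 20.6 untreated, 1.69 ± 0.38 for CK666 over CytoD (adjusted p = 0.000703). Toward CytoD, a Tcf7l1 window 20.5 kb upstream (chr6:72809721-72810262) had differences of opposite sign with the drugs. It held 113, 184 and 184 untreated, 108, 94.0 and 96.3 with CK666 and 266, 285 and 240 with CytoD, so that the 3 groups did not overlap. Neither drug passed the fold limit against control, with log2 fold changes of −0.71 (adjusted p = 0.000294) and 0.69 (adjusted p = 0.000165), while CK666 over CytoD was −1.40 ± 0.15 (adjusted p = 1.82e-12). A window over a Tcf7l2 coding exon (chr19:55930644-55931751) held 3.75, 13.9 and 6.88 with CK666 and 25.4, 23.1 and 38.4 with CytoD, −1.81 ± 0.47 (adjusted p = 0.00412). Of these 8 windows 4 passed both limits in every refit, the distal and intronic Fzd4, the Lrp6 and the Tcf7l1 windows. The Wnt2b call was lost in 5 of 13 refits, without any 1 of the CK666 libraries or without CytoD replicate 2 or 3, that of the Tcf7l2 exon in 3 and those of Lef1 and the Fzd4 exon in 2 each, all on leaving out 1 library.

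No promoter of the Wnt genes was called with either drug. A window over an annotated start was present for 41 genes at 24 h, all but Wnt8a, Wnt8b and Dkk3. With CK666 none of the 41 passed both limits, with log2 fold changes from −0.54 to 0.69, and with CytoD none did, from −0.92 to 0.72. Of all promoter windows, 0.773% and 0.444% were called in these comparisons. At an adjusted p under 0.01 with no fold limit, 0 passed with CK666 and 1 with CytoD, at Fzd8 (−0.45, adjusted p = 0.00183). Per kb of window, untreated MSC promoters of receptors reached the highest levels, 84.8 CPM per kb for Fzd5 and 81.9 for Fzd4, while ligand promoters lay between 0.974 for Wnt4 and 5.23 for Wnt5a.

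CK666 for 4 h in MSCs changed 4 of 617 tested Wnt windows, with gains near Fzd4, Wnt11 and Tcf7l2 and a loss in Wnt7a. The shares were 0.49% up and 0.16% down, against 0.590% and 0.427% of all windows, and the median was 0.02 against 0.00. These libraries are separate from those of 24 h. None of 37 promoters tested was called, with log2 fold changes from −0.83 to 0.42, where 0.263% of all promoter windows were.

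The Fzd4 window of the 4 h table (chr7:89415480-89416505, 11.1 kb downstream) shares 536 bp with the distal window described at 24 h. It held 50.8, 42.0 and 41.5 normalized counts in untreated MSCs and 116, 113 and 138 with CK666, and 111, 96.4 and 63.2 in untreated NIH 3T3 and 203, 244 and 304 with CK666. In each cell type every CK666 library exceeded every untreated one. The log2 fold change was 1.44 ± 0.19 in MSCs (edgeR adjusted p = 1.53e-08) and 1.51 ± 0.17 in NIH 3T3 (adjusted p = 4.25e-10). The difference between these effects was 0.04 ± 0.28 (adjusted p = 0.963), which does not show that the effects were equal. Untreated MSCs were lower there than untreated NIH 3T3 by 1.01 ± 0.21 on the log2 scale (adjusted p = 2.55e-05). In MSCs this window passed both limits in every refit.

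Wnt11 gained at 4 h in a window 29.8 kb upstream (chr7:98804704-98805272), with 32.5, 28.0 and 52.6 normalized counts in untreated MSCs and 119, 76.0 and 72.8 with CK666, 1.23 ± 0.23 (adjusted p = 4.8e-05). In NIH 3T3 the counts were 36.7, 46.0 and 32.5 untreated and 58.3, 85.7 and 92.1 with CK666, 1.06 ± 0.24 (adjusted p = 0.00096). Treated and untreated libraries did not overlap in either cell type, and without MSC CK666 replicate 1 the MSC call was lost. The window 33.5 kb upstream that was called at 24 h had log2 fold changes of 0.86 in MSCs and 0.85 in NIH 3T3 at 4 h, under the fold limit.

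**Figure D3:**
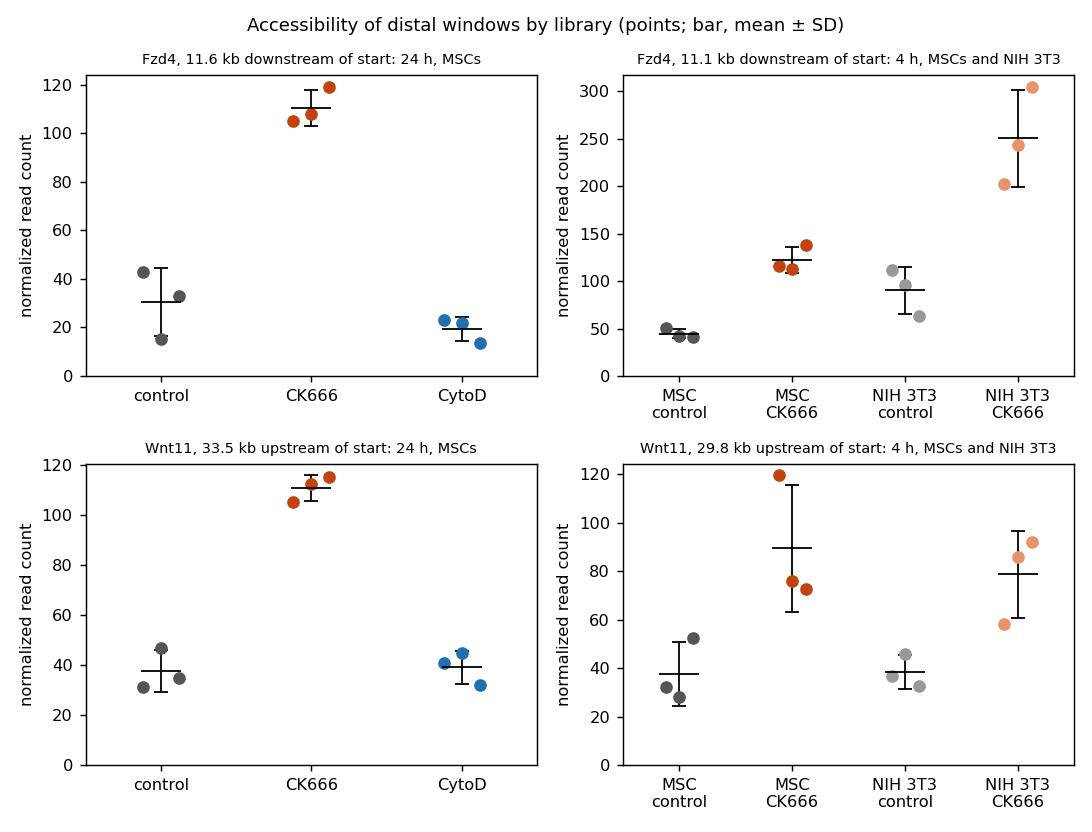
Normalized read counts (vertical axes, from 0) of the distal Fzd4 windows (top) and distal Wnt11 windows (bottom) in each library, at 24 h on the left and 4 h on the right, with points for libraries and black bars for the mean ± SD of 3. The Fzd4 windows overlap. The Wnt11 windows are separate sites, chr7:98800971-98801593 at 24 h and chr7:98804704-98805272 at 4 h, and neither was called in MSCs at the other time. The CK666 libraries lie above the untreated libraries of the same cell type in all 4 panels, and the CytoD libraries do not.

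The other MSC changes at 4 h were smaller in reads. Tcf7l2 rose in an intron (chr19:55845691-55846267) from 33.5, 14.0 and 25.3 to 51.6, 43.9 and 56.6, by 1.05 ± 0.28 (adjusted p = 0.00743). Wnt7a, a ligand, fell in an intron 9.0 kb downstream (chr6:91401720-91402364) from 32.5, 48.1 and 23.3 to 14.3, 15.2 and 11.7, by 1.33 ± 0.34 (adjusted p = 0.00603), while NIH 3T3 libraries held 15.1, 33.9 and 32.5 untreated and 38.4, 25.3 and 22 with CK666. Of 13 refits, the Tcf7l2 call was lost in 7 and the Wnt7a call in 6.

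The 24 h changes could be followed in the separate 4 h libraries. Of the 10 windows that gained with CK666 at 24 h, 9 overlapped a tested 4 h MSC window, 9 of those had the same sign and 1, at Fzd4, was called. Of all windows that gained at 24 h, 94.1% had the same sign and 18.5% were called in 4 h MSCs. The 5 losses all had a window, 4 kept the sign and none was called, against 84.7% with the same sign among all losses. In the overlapping NIH 3T3 windows, 5 of 7 gains and 3 of 3 losses kept the sign, against 77.8% and 60.2% of all windows called.

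CK666 for 4 h in NIH 3T3 opened windows near 17 of the genes, among them Fzd4, Wnt5b, Wnt7a, Wnt7b and Wnt9b, and closed windows near Fzd9, Tcf7l2, Sfrp1, Fzd4, Fzd10 and Dkk2. Of 702 tested windows 24 increased and 7 decreased, 3.42% and 1.0% against 1.87% and 1.67% of all windows, and the median was 0.12 against 0.04. Ligand windows accounted for 9 gains and 0 losses of 256, receptor windows for 9 and 4 of 180, TCF/LEF windows for 3 and 1 of 112 and antagonist windows for 3 and 2 of 102, and none of 52 intracellular windows was called. The number of gains depended on single libraries, at 11 without NIH 3T3 CK666 replicate 3, 12 without control replicate 3 and 13 without control replicate 1. Over all windows the gains fell as well, from 6216 to 3528, 3446 and 3454 in the same refits. With total counts as scaling, which moved the median of all windows by 0.11 on the log2 scale, 28 Wnt windows increased and 3 decreased. The share of gains among all calls then went from 52.8% to 69.5%.

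The distal gains in this paragraph began from few reads, unlike those of the Fzd4 and Wnt11 windows given above. They were picked by the size of the log2 fold change. They could also pass the filter on low counts through the CK666 libraries alone. The low start is therefore not a result about CK666. In a Wnt5b intron 2.9 kb downstream (chr6:119540664-119541463) the counts were 2.16, 6.08 and 6.70 untreated and 33.8, 16.5 and 31 with CK666, a log2 fold change of 2.40 ± 0.53 (adjusted p = 0.00077). Another intronic window, in Wnt7a (chr6:91376032-91376533), went from 5.40, 6.95 and 1.91 to 23.0, 24.2 and 25.0, 2.32 ± 0.55 (adjusted p = 0.00181). Treated libraries were above the untreated ones in both windows. Wnt9b, a ligand of kidney development, rose 0.9 kb upstream of its start (chr11:103750684-103751217) from 6.48, 5.21 and 5.74 to 24.6, 31.8 and 22, by 2.17 ± 0.51 (adjusted p = 0.00153). Lef1 rose 19.2 kb upstream (chr3:131090538-131091283) from 4.32, 4.34 and 6.70 to 21.5, 11.0 and 31, by 2.05 ± 0.57 (adjusted p = 0.00906). Wnt7b rose 12.4 kb upstream (chr15:85594884-85595868) from 5.40, 7.81 and 8.61 to 35.3, 22 and 27, by 1.93 ± 0.47 (adjusted p = 0.00282). In these windows too the treated libraries lay above the untreated ones. Of 13 refits, the call was lost in 10 for Lef1, 5 for this Wnt7b window, 2 each for Wnt5b and Wnt7a and 1 for Wnt9b.

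At 2 of 35 promoters tested in NIH 3T3 the change passed both limits, against 1.5% of all promoter windows. The Lrp5 promoter (chr19:3685750-3686869) held 48.6, 53.8 and 37.3 untreated and 78.3, 82.4 and 126 with CK666, 1.07 ± 0.22 (adjusted p = 0.000347), and in MSCs 70.0, 82.1 and 63.7 untreated and 47.8, 68.4 and 62.9 with CK666. Windows within 1 Mb of it had a median log2 fold change of 0.67, and relative to that median the gain was 0.40. The Wnt7b promoter (chr15:85581327-85582872) held 10.8, 23.4 and 18.2 untreated and 67.5, 22 and 53.0 with CK666, 1.41 ± 0.35 (adjusted p = 0.00302), and its groups overlapped.

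The losses given for NIH 3T3 were in windows that were open before treatment, which a called loss requires. Fzd9, a Frizzled studied in bone-forming cells, lost signal at 12.5 kb upstream (chr5:135263693-135264601), from 154, 160 and 174 normalized counts to 76.7, 93.4 and 57, by 1.09 ± 0.18 (adjusted p = 7.85e-06). It also lost signal in an intron of Baz1b (chr5:135220821-135221396), from 45.3, 82.5 and 49.8 to 30.7, 17.6 and 20, by 1.40 ± 0.30 (adjusted p = 0.000516). A Tcf7l2 intron (chr19:55788177-55788736) fell from 86.4, 77.3 and 90.0 to 30.7, 29.7 and 36.0, by 1.36 ± 0.24 (adjusted p = 2.32e-05). All 3 windows had separate groups. An Sfrp1 intron 17.1 kb downstream (chr8:23428646-23429215) fell from 46.4, 50.4 and 67.0 to 12.3, 27.5 and 26.0, by 1.25 ± 0.30 (adjusted p = 0.00228). In an intron of Tmem135 nearest to Fzd4 (chr7:89397750-89398345) the counts were 54.0, 57.3 and 54.6 and then 27.6, 8.79 and 34.0, −1.21 ± 0.31 (adjusted p = 0.00413). Fzd10 showed 71.3, 56.4 and 58.4 and then 30.7, 24.2 and 30.0 at an intergenic window (chr5:128557815-128558629), −1.11 ± 0.27 (adjusted p = 0.00256). Of these 6 losses, that of Tcf7l2 passed both limits in every refit. The other 5 fell short in 6 of 13 refits for Fzd4, 4 for Fzd10, 3 for Sfrp1, 2 for Fzd9 12.5 kb upstream and 1 for Fzd9 in Baz1b. Of 19 gains with a tested window in the 4 h MSC libraries, 15 had the same sign and 2, at Fzd4 and Wnt11, were called, against 70.8% and 8.62% of all NIH 3T3 gains. Of 6 losses with such a window 2 had the same sign, against 63.1%.

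The effect of CK666 in the cell types was compared directly by its interaction with cell type. Of 756 tested windows 2 differed upward in NIH 3T3 and 4 downward, 0.26% and 0.53% against 0.498% and 0.905% of all windows. With total counts as scaling 2 and 2 did, and the share of upward calls among all calls went from 35.5% to 53.8%. The Wnt5b intron described for NIH 3T3 held 14.2, 5.01 and 11.1 in untreated MSCs and 2.87, 1.69 and 2.70 with CK666. CK666 libraries lay below untreated ones in MSCs and above them in NIH 3T3, with an interaction of 4.40 ± 0.90 on the log2 scale (adjusted p = 0.000725). The window could pass the filter of this fit through the NIH 3T3 CK666 libraries, where it was highest. That favoured an upward difference, so its size and the opposite directions are not secure. With so few reads in MSCs the window did not enter the fit of the 4 h MSC libraries, so a change with CK666 in MSCs was not tested. DESeq2 did not call this interaction. At the Lrp5 promoter the interaction was 1.31 ± 0.31 (adjusted p = 0.00477). In a Ctnnb1 intron that overlaps Ulk4 (chr9:120957943-120958481) MSCs went from 62.9, 81.1 and 66.8 to 89.8, 87.0 and 85.4 and NIH 3T3 from 91.8, 93.8 and 100 to 47.6, 64.8 and 44, an interaction of −1.18 ± 0.29 (adjusted p = 0.00645). The Fzd9 window in Baz1b stayed at 66.0, 59.1 and 45.5 and then 56.4, 75.1 and 59.3 in MSCs, an interaction of −1.59 ± 0.38 (adjusted p = 0.00431), and its intergenic window gave −1.43 ± 0.33 (adjusted p = 0.00321). The Sfrp1 intron held 288, 266 and 248 in untreated MSCs and 293, 282 and 253 with CK666, an interaction of −1.30 ± 0.28 (adjusted p = 0.00171). None of these 6 passed both limits in every alternative.

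Untreated MSCs and NIH 3T3 differed at far more Wnt windows than any drug changed. MSCs were more open at 125 of 756 windows near 36 genes, among them Sfrp4, Tcf7l2 and Ctnnb1, and NIH 3T3 at 157 near 35 genes, among them Axin2, Sfrp2, Lrp5, Fzd10 and Lef1. These are 16.5% and 20.8%, against 18.3% and 16.2% of all windows, with a median log2 fold change of −0.22 against −0.02. Many genes had called windows of both directions, such as Fzd9 with 1 more open in MSCs and 4 in NIH 3T3, and Wnt5b with 5 and 8. Total-count scaling shifted the median of all windows by −0.23 and gave 100 and 201 Wnt windows, with the share of all calls higher in MSCs going from 53.1% to 40.8%. Fitted on the 6 untreated libraries alone, 119 and 172 Wnt windows were called. Cell type and everything else that differs between primary marrow cells and an established line, such as culture history, cannot be told apart here.

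By role, MSCs were more open at 38 and NIH 3T3 at 51 of 270 ligand windows, at 24 and 41 of 193 receptor windows, at 13 and 15 of 65 intracellular windows, at 32 and 24 of 119 TCF/LEF windows and at 18 and 26 of 109 antagonist windows. Single genes had most of their called windows in 1 cell type, and for many of them the windows within 1 Mb leaned the same way. Tcf7l2 had 25 windows more open in MSCs and 7 in NIH 3T3 of 52, and Ctnnb1 12 and 3 of 33. Axin2, a scaffold of the β-catenin destruction complex that is itself a Wnt target, had 0 and 12 of 29. Sfrp2 had 1 and 11 of 31, Dkk2 1 and 9 of 23, Fzd10 0 and 8 of 23 and Lef1 0 and 7 of 24. The median log2 fold change within 1 Mb was 0.55 around Tcf7l2, 0.04 around Ctnnb1, −0.34 around Axin2, −0.52 around Sfrp2, −0.43 around Dkk2, −0.73 around Fzd10 and −0.69 around Lef1.

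**Figure D4:**
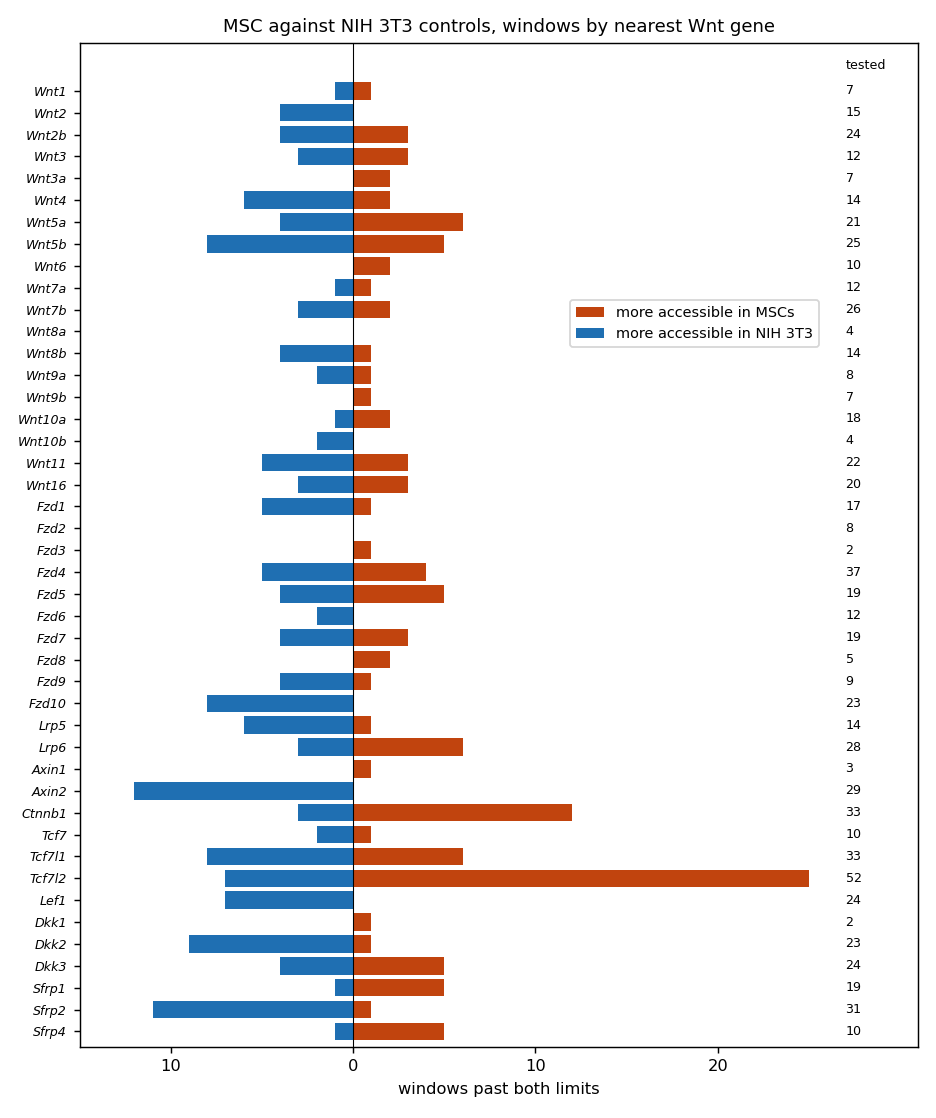
Number of windows past both limits (horizontal axis) for each of the 44 genes in untreated MSCs against NIH 3T3, with windows more open in MSCs to the right in red, those more open in NIH 3T3 to the left in blue, and the number tested at the far right. Tcf7l2 has the longest red bar at 25 and Axin2 the longest blue bar at 12.

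Promoters differed as well. Of 39 Wnt promoters tested, 10 were more open in MSCs and 1 in NIH 3T3, where 17.7% of all promoter windows were more open in MSCs and 6.30% in NIH 3T3. The highest levels were at receptors in both cell types, 105 CPM per kb in MSCs and 80.3 in NIH 3T3 for Fzd5, 40.7 and 39.9 for Fzd4, 28.2 and 16.7 for Fzd8. None of these 3 receptors was called. The lowest in MSCs above 0 was Wnt10b at 0.393, with 0.799 in NIH 3T3.

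Sfrp4, a secreted Wnt antagonist, had the promoter with the largest excess in MSCs (chr13:19623557-19624595), 467, 444 and 524 normalized counts against 20.5, 24.3 and 23.0 in NIH 3T3, a log2 fold change of 4.39 ± 0.17 (edgeR adjusted p = 9.61e-38). The median of windows within 1 Mb was 1.14. The Fzd9 promoter (chr5:135251035-135251552) held 142, 147 and 144 against 4.32, 10.4 and 8.61, 4.16 ± 0.27 (adjusted p = 8.32e-24), while the 4 called distal windows of this gene were more open in NIH 3T3. Dkk1, an antagonist that binds Lrp6, held 62.9, 46.0 and 58.7 against 18.4, 12.2 and 16.3 (chr19:30548651-30549804), 1.85 ± 0.31 (adjusted p = 3.3e-07). Tcf7, a TCF/LEF factor, held 38.6, 30.0 and 15.2 against 8.64, 3.47 and 7.66 (chr11:52282950-52283702), 2.09 ± 0.47 (adjusted p = 0.000127). MSC libraries were above all NIH 3T3 libraries at each of these promoters.

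The other 6 were ligand promoters. Wnt5b (chr6:119543278-119545024) held 121, 139 and 110 normalized counts in MSCs against 4.32, 21.7 and 15.3, a log2 fold change of 3.10 ± 0.27. Wnt16 (chr6:22288505-22289278), known for its role in cortical bone, held 91.4, 91.1 and 88.0 against 27, 23.4 and 21.1, 1.92 ± 0.25 (adjusted p = 2.29e-10). Wnt2b (chr3:104961355-104962041) held 71.1, 76.1 and 62.7 against 19.4, 14.8 and 18.2, 2.0 ± 0.31. These 3 were separated by wide margins. Wnt9b (chr11:103749536-103750078) held 16.2, 24.0 and 12.1 against 0.00, 4.34 and 1.91, from 7 reads in NIH 3T3, 2.91 ± 0.63 (adjusted p = 6.18e-05). Wnt3 (chr11:103773741-103774387) held 24.4, 18.0 and 19.2 against 1.08, 8.68 and 6.70, 1.83 ± 0.56 (adjusted p = 0.00423), and Wnt6 (chr1:74771868-74772467) 47.7, 59.1 and 34.4 against 8.64, 31.3 and 13.4, 1.36 ± 0.33 (adjusted p = 0.000325). Of 14 refits, the Wnt3 call was lost in 7 and the Wnt6 call in 2. The exception among promoters was Dkk3, a divergent member of the Dickkopf family (chr7:112158815-112159403), with no read in any untreated MSC library and 24.8, 12.2 and 20.1 in NIH 3T3 (adjusted p = 1.24e-08). Against a floor of 3 reads over the MSC group it was at least 18.9-fold lower in MSCs.

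**Figure D5:**
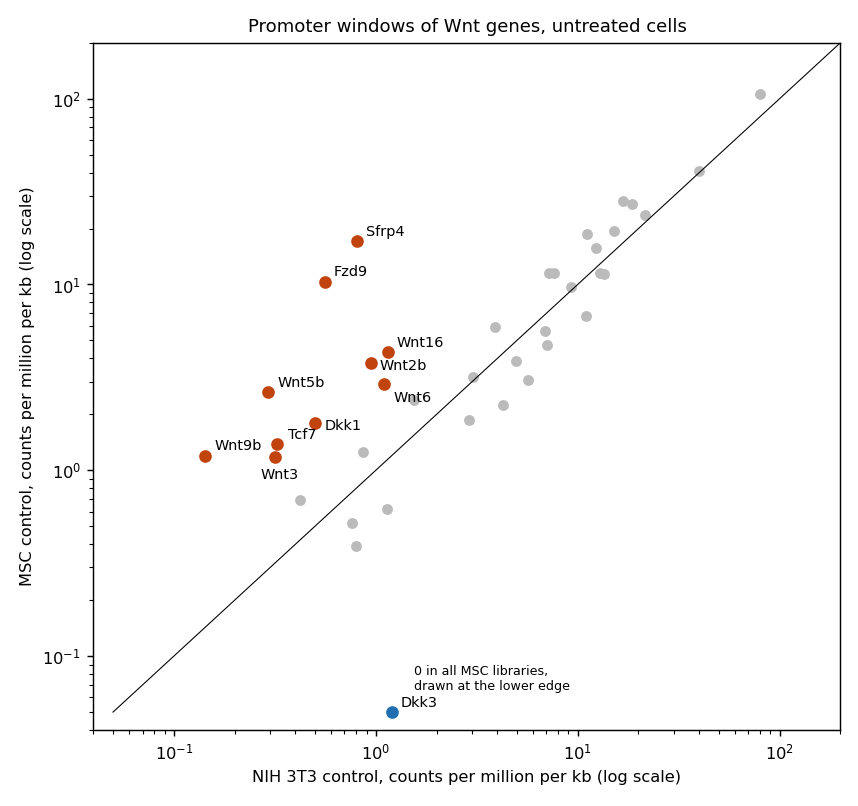
CPM per kb at the promoter window of each Wnt gene in untreated NIH 3T3 (horizontal axis) and MSCs (vertical axis), both on log scales, with the line of equal levels. Red points are the 10 promoters called higher in MSCs, the blue point is Dkk3, which was 0 in all MSC libraries and is drawn at the lower edge, and grey points were not called.

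Distal windows are given for the largest differences among those averaging 50 or more normalized counts with separate groups. The largest excess in MSCs was also at Dkk3, 26.2 kb upstream (chr7:112185208-112185801), with 169, 164 and 143 against 6.48, 8.68 and 3.83, a log2 fold change of 4.6 ± 0.31. So the Dkk3 locus held windows of both directions. Tcf7l2 (chr19:55867825-55868509) held 507, 489 and 453 against 34.5, 27.8 and 9.57, 4.34 ± 0.18. Wnt5a, the ligand best known for signalling without β-catenin, held 168, 178 and 178 against 15.1, 12.2 and 5.74 at 21.4 kb downstream (chr14:28532791-28533332), 3.99 ± 0.24. With CK666 at 4 h this Wnt5a window was higher in MSCs by a further 0.92 ± 0.11 (adjusted p = 4.46e-10), short of the fold limit. Tcf7l1 (chr6:72740493-72741002) held 192, 232 and 227 against 5.40, 18.2 and 16.3, 3.97 ± 0.23. The most open of these windows, in an intron of Tmem135 22.1 kb upstream of Fzd4 (chr7:89380739-89382229), held 979, 957 and 976 against 82.1, 67.7 and 97.6, 3.56 ± 0.13 (adjusted p = 2.96e-39). Wnt2b held 546, 562 and 535 against 56.1, 45.1 and 40.2 at 22.5 kb upstream (chr3:104984399-104985331), 3.54 ± 0.15.

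In the other direction, Lrp5, the co-receptor tied to bone mass, had the largest difference, in its intron 16.9 kb downstream (chr19:3669065-3669612). MSC libraries held 1.02, 1.0 and 3.03 normalized counts, 5 reads in all, and NIH 3T3 195, 188 and 140, a log2 fold change of −6.59 ± 0.37 (adjusted p = 1.65e-27). Fzd7 9.7 kb upstream (chr1:59472153-59472702) held 3.05, 2.0 and 2.02 against 141, 92.0 and 126, −5.59 ± 0.38. These windows were all but closed in MSCs. So was a Wnt4 window 26.1 kb upstream (chr4:137250825-137251361), with 2.03, 5.01 and 3.03 against 126, 140 and 172, −5.39 ± 0.31. With CK666 the NIH 3T3 libraries of this Wnt4 window held 250, 273 and 258, a difference of 0.86 ± 0.15 (adjusted p = 2.01e-05), under the fold limit. Sfrp2 9.0 kb downstream (chr3:83775353-83775935) held 12.2, 10 and 22.3 against 185, 149 and 208, −3.59 ± 0.24. Axin2 21.8 kb upstream (chr11:108897955-108898513) held 14.2, 3.00 and 12.1 against 101, 89.4 and 136, −3.46 ± 0.30. Both belong to the genes with most windows open in NIH 3T3. A Dkk3 intron (chr7:112122050-112122557) held 14.2, 12 and 6.07 against 120, 109 and 89.0, −3.28 ± 0.28. Wnt2 held 19.3, 14.0 and 27.3 against 195, 186 and 201 at 14.8 kb upstream (chr6:18045409-18045980), −3.26 ± 0.22, and 28.4, 24.0 and 26.3 against 207, 168 and 188 over a coding exon (chr6:17989651-17990226), −2.83 ± 0.21.

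The letters of AP-1 were in 35.7% of the Wnt windows more open in NIH 3T3 and 18.4% of those more open in MSCs, and in 39.2% and 28.6% of all windows called in these directions. Of the windows near other genes of the pathway, such as Rspo1 to Rspo4, Lgr4 to Lgr6, Dvl1 to Dvl3, Gsk3b and Apc, 22 increased and 8 decreased with CK666 at 24 h, 7 and 11 with CytoD, 13 and 5 with CK666 at 4 h in MSCs and 20 and 13 in NIH 3T3, and 196 were more open in MSCs and 213 in NIH 3T3. These were out of 1123 windows tested at 24 h and 1045, 1132 and 1236 in the 4 h comparisons. In the same order the shares were 1.96% and 0.71%, 0.62% and 0.98%, 1.24% and 0.48%, 1.77% and 1.15%, and 15.9% and 17.2%, beside 1.88% and 1.06%, 0.980% and 1.40%, 0.590% and 0.427%, 1.87% and 1.67%, and 18.3% and 16.2% of all windows.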

How the data were processed

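Per the labels and the study's methods, nuclei of MSCs and NIH 3T3 were processed by Omni-ATAC and the authors aligned reads to mm10 with bowtie2 in PEPATAC, called peaks with MACS2 and merged them into consensus windows. The deposited values are raw read counts per window and library, without normalization, in 1 table for 24 h and 1 for 4 h. Of 30 libraries 21 were used, and 9 columns of siRNA libraries were left out. Windows were assigned to genes by the nearest protein-coding start of GENCODE vM21 (GRCm38). Counts were fitted per table with edgeR 4.0.16 in R 4.3.3 (filterByExpr, TMM scaling, quasi-likelihood test, no covariate, Benjamini-Hochberg adjustment over all windows). The 24 h fit held 9 libraries, the 4 h fits 6 of 1 cell type, and the comparison of cell types and the interaction all 12.

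Tested on simulated counts, 84.5% (24 h CK666), 89% (4 h CK666, MSCs) and 85% (4 h CK666, NIH 3T3) of 200 windows changed by a log2 fold of 2 were recovered. The changed windows were drawn from those above a count floor, with an assumed spread between libraries. These shares therefore do not cover windows with few reads or smaller changes. Alternatives were DESeq2 1.42.0, other scalings and filters, a GC offset, a replicate block, leaving out libraries, a 5 kb distance, an adjusted p under 0.05 with no fold limit and centring on windows within 1 Mb. Windows with values were the 6 largest changes each way per drug and cell type, the 8 largest each way between untreated cell types, the 4 largest each way for CK666 against CytoD and for the interaction, and every called promoter, except 1 window that is not reported here. Genes, lists and tests were chosen with earlier results of these data known. The ± values are standard errors worked out from the log2 fold change and the F statistic of the test, not taken from the fit itself. The floor covers counting error only.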

Additional observations from a re-analysis of the deposited data

Results flagged for a closer look

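The response to CK666 at 4 h differed between the cell types, by the interaction in edgeR's quasi-likelihood test, at 6 of 756 Wnt windows tested. Upward and downward these were 0.26% and 0.53%, against 0.498% and 0.905% of all windows. Such differences were thus no more frequent at the Wnt loci than over all windows. On the log2 scale, as the effect in NIH 3T3 minus that in MSCs, the differences were 4.40 at the Wnt5b intron, 1.31 at the Lrp5 promoter, −1.59 and −1.43 at the Fzd9 windows in Baz1b and 12.5 kb upstream, −1.30 at the Sfrp1 intron and −1.18 at the Ctnnb1 intron. The Wnt5b window rested on 8 reads in the 3 CK666 libraries of MSCs together and was not tested in the MSC libraries alone. It could pass the filter through the NIH 3T3 CK666 libraries, where it was highest, which favoured an upward difference. Of 19 alternatives, the call was lost in 12 for Ctnnb1, 7 for Lrp5, 7 for Fzd9 in Baz1b, 4 for Fzd9 12.5 kb upstream and 1 each for Sfrp1 and Wnt5b. The median interaction of windows within 1 Mb was −0.36 around the Ctnnb1 window and 0.49 around the Lrp5 promoter, and relative to it the differences were −0.82 and 0.82, under the fold limit. Whether depth, which was lowest in an NIH 3T3 CK666 library, had a part in these differences was not tested.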

How the results depend on the processing

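Over 77 single windows and 1062 alternatives, 908 kept direction and call, 154 kept the direction but fell short of a limit and 0 reversed. The counts of called windows stayed within 1.5 times in 182 of 238 alternatives. In the order increased then decreased for CK666 at 24 h, CytoD, CK666 against CytoD, CK666 at 4 h in MSCs and in NIH 3T3, MSCs against NIH 3T3 and the interaction, an adjusted p under 0.05 with no fold limit gave 34 and 22, 22 and 37, 48 and 27, 21 and 19, 64 and 37, 198 and 243, and 12 and 19. Windows within 5 kb alone, fewer by construction, gave 1 and 0, 1 and 0, 2 and 3, 0 and 0, 7 and 0, 30 and 16, and 1 decreased for the interaction. DESeq2 gave 1 increased for CytoD, 0 decreased in MSCs at 4 h, 15 increased in NIH 3T3 and 1 increased for the interaction. Over all windows these numbers were 2128, 897, 3565 and 1428 with DESeq2, against 2944, 1310, 6216 and 1837 in the main fit. Scaling to total counts gave 4 Wnt windows decreased for CytoD, 3 decreased in NIH 3T3 and 2 decreased for the interaction, and regional centring 1 increased for the interaction. Over all windows total counts gave 2961, 3514 and 2342 decreased, against 4207, 5549 and 3339.

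Leaving out 1 library at a time gave 6 to 11 increased and 4 to 6 decreased for CK666 at 24 h (6 without MSC CK666 replicate 1), 1 to 2 and 3 to 10 for CytoD (1 increased without CytoD replicate 2 or control replicate 1, 3 decreased without control replicate 3), 13 to 16 and 4 to 6 for CK666 against CytoD (4 without CytoD replicate 3), 2 to 4 and 0 to 1 in MSCs at 4 h (0 without any CK666 replicate or control replicate 1 or 2), 11 to 28 and 5 to 8 in NIH 3T3, 113 to 119 and 138 to 151 between cell types, and 1 to 5 and 2 to 5 for the interaction. For the interaction, increases were 4 without NIH 3T3 CK666 replicate 2, 1 without its replicate 3 or MSC CK666 replicate 3 and 5 without NIH 3T3 control replicate 2, and decreases were 2 without NIH 3T3 CK666 replicate 3, NIH 3T3 control replicate 3 or MSC CK666 replicate 2. Over all windows, leaving out 1 library gave 4173 to 4939 increased for CK666 at 24 h, 1972 to 2430 for CytoD and 3446 to 5883 in NIH 3T3. The main fit gave 5641, 2944 and 6216. The cause of these shifts was not tested.

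Deviations of same-numbered libraries from their group means correlated at −0.0718 to 0.0278 over 36 pairs, some of them listed in several comparisons. Differently numbered libraries correlated at −0.0520 to 0.0537. Counting error in single windows can hide a shared culture, so these values do not show whether the numbers pair the samples. A replicate block gave 9 and 5, 2 and 6, 15 and 7, 3 and 1, 22 and 8, 122 and 154, and 2 and 4 called windows in the order above, and the replicate block with the GC offset 1 increased for CytoD. Windows with few reads, such as those of Wnt2b and Fzd7 at 24 h, are limited by depth.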
